A study of Mus musculus with 444 samples.

Results

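The 9 genes described here belong to Wnt signaling: the secreted antagonists Wif1, Sostdc1 and Sfrp1, the ligands Wnt5b, Wnt6 and Wnt10a, the feedback target Axin2, and the nuclear factors Lef1 and Tcf7l2. They were matched by gene identifier to the 27179 gene identifiers of the deposited tables, and all 9 were present there. The list itself was chosen with earlier results of these data known. The data were read pair counts from single mammary epithelial cells of the inbred mouse strain FVB/NJ, collected at 2 stages, puberty (221 cells) and adult (223 cells). At both stages total epithelium was sorted fresh and captured with the Fluidigm C1 system, whose chambers each amplify the polyadenylated RNA of 1 cell, and libraries were made with Nextera XT. The mice carried no transgene and received no treatment that the labels name, and the labels give the stage but no age. According to the study's methods, cells with blood or endothelial surface antigens were removed and cells of several female mice were combined in each sort. No cell is labelled with its animal, sort or capture, so each stage is 1 sample, no p-value was computed, and all intervals cover counting error only, without molecular identifiers to collapse amplified copies.

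Wnt proteins are secreted signals that bind Frizzled and Lrp receptors, stabilize beta-catenin and, through the Tcf and Lef factors, switch on target genes. The Wif and Sfrp proteins bind the ligands outside the cell, and Sostdc1 and its relatives bind the Lrp co-receptors. In the mammary gland the pathway is known for its part in placode formation, in side branching and in the maintenance of basal stem cells.

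Of the 9 genes, Sostdc1 stood higher in pubertal basal cells, in level and in the share of cells with reads, against either set of adult cells described here. Wnt10a stood higher in adult basal cells, although outside the cells numbered 48 to 188 this rested mostly on 1 cell. In basal cells Wif1 and Tcf7l2 differed in level by less than 2-fold between the stages. The ratio of Sfrp1 changed with the set of adult cells compared, and outside 48 to 188 its adult reads came mostly from 1 cell. The ratios of Wnt6 and Axin2 rested on single cells. Lef1 had no read in any of the 444 cells.

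Cells with at least 100000 read pairs and 1500 genes were retained, 171 of puberty and 152 of the adult, and each was thinned to 100000 read pairs so that cells of unequal depth could be compared. Before thinning the retained cells held 100883 to 1354378 read pairs. Levels are given in CPM of the summed cells of a group, a scale on which 1 read pair of a thinned cell makes 10 CPM in that cell. Basal cells, the outer contractile layer of the duct, were those with the keratin gene Krt14 or the smooth muscle actin gene Acta2 at 100 CPM or more, and numbered 79 in puberty and 110 in the adult. Luminal cells, the inner layer, were the others with Krt8 or Krt18 at 100 CPM, and numbered 86 and 37. The median basal cell held 7 of 10 basal markers at 10 CPM or more in puberty and 9 in the adult, against 0 and 3 in luminal cells. Krt14 and Acta2 belong to these 10 and also set the classes, so part of this count was fixed by the definition. The other basal markers were each higher in basal than in luminal cells at both stages. Examples are Tagln at 2747 against 17.0 CPM in puberty and Oxtr at 242 against 44.1 CPM in the adult. However, 62 of the 79 and 100 of the 110 basal cells also held Krt8 or Krt18 at 100 CPM. At least 3 of 6 fibroblast markers were present in 7 pubertal and 8 adult basal cells, and the summed fibroblast levels over all basal cells were 708 and 770 CPM. The 4 leukocyte markers summed to 8.23 and 10.9 CPM, nearly all of it Cd74, with Ptprc and Laptm5 at 0. The 4 endothelial markers summed to 67.8 CPM in pubertal and 2.18 CPM in adult basal cells, and the 4 pericyte markers to 51.1 and 45.5 CPM. The 4 adipocyte markers summed to 969 and 410 CPM, nearly all of it Fabp4.

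The adult cells numbered 48 to 188 in their titles stood apart. All 107 of them carried reads of Rn7sk, a small nuclear RNA, with a median of 356 CPM, against 8 of the 45 other adult cells and 35 of the 171 pubertal cells. They made up 90 of the 110 adult basal cells and 17 of the 37 adult luminal cells. The median luminal cell among them held 5 basal markers, against 1 in the other adult luminal cells, and 10 of the 17 lay within 50 to 200 CPM of Krt14 or Acta2. What sets them apart cannot be told from the labels, and the main results for the adult are therefore given with these cells and without them. Pubertal basal cells set against the other adult ones gave a median log2 ratio of 0.63 over all genes with reads, so ratios against that set are to be read relative to this shift.

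The genes lay at separate places in the genome apart from one pair. In the mm10 (GRCm38) assembly Wif1 spans chr10:121034004-121100642, Sostdc1 chr12:36314169-36318452 and Sfrp1 chr8:23411383-23449632. Wnt6 (chr1:74754342-74785322) and Wnt10a (chr1:74792019-74804176) are neighbors with 6696 bases and no annotated gene between them. Wnt5b spans chr6:119432531-119544824, Axin2 chr11:108917828-108950783, Lef1 chr3:131110297-131224357 and Tcf7l2 chr19:55741797-55933659. Counting covered the exons. Other annotated genes overlap Wnt5b (4 genes, among them Fbxl14), Wnt6, Wnt10a and Tcf7l2 (1 each), and since the use of strand in counting was not given, the reads of those regions may be shared.

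The sequences around the transcription start are shown for the antagonist Wif1, the ligand Wnt6 and the target Axin2, each higher in basal than in luminal cells at both stages, and for the Wnt5b start that holds a Tcf/Lef motif. They run from 250 bases before to 50 bases after the start, 5′ to 3′ on the gene's own strand, from RefSeq (GRCm38.p6). Capitals mark the motif, which was searched as CTTTGAA or CTTTGAT on both strands.
Wif1, plus strand, chr10:121033754-121034053: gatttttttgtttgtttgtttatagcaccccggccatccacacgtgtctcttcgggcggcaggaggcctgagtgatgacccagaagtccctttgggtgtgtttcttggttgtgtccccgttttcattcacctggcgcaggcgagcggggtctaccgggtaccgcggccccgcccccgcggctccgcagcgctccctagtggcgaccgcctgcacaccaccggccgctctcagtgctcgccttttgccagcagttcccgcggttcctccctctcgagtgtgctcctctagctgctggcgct
Wnt6, plus strand, chr1:74771642-74771941: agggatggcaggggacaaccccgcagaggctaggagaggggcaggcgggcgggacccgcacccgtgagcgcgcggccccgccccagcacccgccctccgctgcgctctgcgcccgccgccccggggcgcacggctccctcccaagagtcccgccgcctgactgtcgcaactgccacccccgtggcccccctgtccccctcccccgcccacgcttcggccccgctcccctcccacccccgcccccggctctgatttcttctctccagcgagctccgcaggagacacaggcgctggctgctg
Axin2, plus strand, chr11:108920099-108920398: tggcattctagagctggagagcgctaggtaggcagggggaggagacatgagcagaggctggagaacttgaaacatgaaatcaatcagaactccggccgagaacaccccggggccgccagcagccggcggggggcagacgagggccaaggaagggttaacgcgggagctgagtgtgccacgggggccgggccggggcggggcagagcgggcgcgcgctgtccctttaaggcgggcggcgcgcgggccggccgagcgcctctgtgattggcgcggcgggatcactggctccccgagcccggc
Wnt5b, minus strand, chr6:119449337-119449636: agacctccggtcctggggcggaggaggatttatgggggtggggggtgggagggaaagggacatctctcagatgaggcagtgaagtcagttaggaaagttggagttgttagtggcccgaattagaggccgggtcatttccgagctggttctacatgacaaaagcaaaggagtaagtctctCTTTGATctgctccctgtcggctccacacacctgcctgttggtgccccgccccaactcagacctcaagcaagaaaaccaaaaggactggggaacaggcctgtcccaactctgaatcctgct
Among the 12 promoter windows listed for Wif1, Wnt5b, Wnt6, Axin2, Lef1 and Tcf7l2, this Wnt5b window was the one with a match, at position -71 from the start. The motif occurs in 8.65% of all 32851 windows of the same length, so 1 match in 12 is near what any windows give. A match is a stretch of letters and does not show binding.

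Wif1, the Wnt inhibitory factor that binds ligands directly, was a basal gene at both stages. In puberty it reached 93.3 CPM in basal cells (95% interval 86.7 to 100) and was detected in 30 of 79 of them (38.0%, 27.3 to 49.6%), and in the 30 cells plus 4 more with reads before thinning its values ran from 1.22 to 1729 CPM with a median of 49.7. In the adult it reached 105 CPM (99.0 to 111) and was detected in 63 of 110 basal cells (57.3%, 47.5 to 66.7%), with values of 1.18 to 1863 CPM and a median of 37.7. The levels thus nearly coincided (log2 ratio of puberty over adult -0.17, -0.30 to -0.04) while more adult cells had a read. At 10 CPM or more the shares were 31.6% in puberty and 53.6% in the adult, and at 100 CPM or more 19.0% and 17.3%. The larger adult share thus lay mostly in cells between 10 and 100 CPM. Luminal cells with Wif1 were 1 of 86 in puberty and 4 of 37 in the adult, all 4 among the cells numbered 48 to 188, where 11 of 17 luminal cells (64.7%) had a read before thinning. In the other 20 adult luminal cells Wif1 had 0 reads, which allows a share of up to 15.0%. Basal cells of those other adult cells held Wif1 at 136 CPM in 10 of 20 cells, and 1 cell carried 64.7% of these reads.

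Sostdc1, which binds Lrp co-receptors and also antagonizes BMP signals, was the antagonist that stood higher in puberty. Pubertal basal cells held 154 CPM (146 to 163) in 36 of 79 cells (45.6%, 34.3 to 57.2%), with a lowest value of 1.11, a median of 204 and a highest of 2128 CPM among cells with reads. Adult basal cells held 25.9 CPM (23.0 to 29.1) in 27 of 110 cells (24.5%, 16.8 to 33.7%), with 4.79, 48.8 and 314 CPM. The highest adult cell therefore lay well below the highest pubertal cells, although the ranges overlapped. The log2 ratio was 2.53 (2.35 to 2.71). It was 2.32 against the cells numbered 48 to 188, 4.28 against the other adult cells and 2.42 when the top cell in either stage was left out. The top pubertal cell held 2 of 10 basal markers. At 100 CPM or more, 32.9% of pubertal and 8.18% of adult basal cells had Sostdc1. In luminal cells Sostdc1 was at 9.65 CPM in puberty, in 7 of 86 cells and with 57.8% of the reads in 1 cell, and 0 reads in 37 adult cells. All 7 were among the 76 pubertal luminal cells with at least 2 of 6 hormone-sensing markers.

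Sfrp1, a secreted Frizzled-related protein that binds Wnt ligands, gave a ratio that depended on the adult cells. Pubertal basal cells held 52.5 CPM (47.6 to 57.8) in 15 of 79 cells (19.0%, 11.0 to 29.4%), with values of 0.982 to 920 CPM and a median of 160. The 90 basal cells numbered 48 to 188 held 143 CPM (135 to 151) in 55 cells (61.1%, 50.3 to 71.2%), with values of 2.13 to 4812 CPM and a median of 32.7. The other 20 adult basal cells held 39.5 CPM (31.3 to 49.2) in 3 cells (15.0%, 3.21 to 37.9%), and 1 cell carried 81.0% of these reads. Pubertal cells and the other adult cells were thus alike in share, whereas the cells numbered 48 to 188 more often had Sfrp1, mostly at low values. The log2 ratio was -1.23 (-1.38 to -1.07) against all adult basal cells, -1.43 against those numbered 48 to 188 and 0.40 (0.06 to 0.76) against the others. The median over all genes against those others was 0.63, so 0.40 lay below that shift. One cell numbered 48 to 188 held 37.0% of the adult reads, and without it and the highest pubertal cell the ratio was -0.96. That cell had 10 of 10 basal and 3 of 6 fibroblast markers, and without cells of 3 or more fibroblast markers the ratio was -0.61. At 100 CPM or more the shares were 13.9% in puberty and 18.2% in the adult. Among basal cells without luminal keratin, 17 of puberty and 10 of the adult, the level of Sfrp1 was instead higher in puberty, at 129 against 16.0 CPM (log2 ratio 2.93). The share did not follow, with 6 cells (35.3%) in puberty and 4 (40.0%) in the adult. The highest cell held 45.7% of these reads in puberty and 75.0% in the adult.

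The antagonists overlapped in the same basal cells. Any of the 3 occurred in 51 of 79 pubertal basal cells (64.6%) and in 87 of 110 adult ones (79.1%), against 10 of 86 and 7 of 37 luminal cells. The adult share was 77 of 90 (85.6%) in basal cells numbered 48 to 188, but 10 of 20 (50.0%) in the others. All 3 together occurred in 4 pubertal and 12 adult basal cells, and these 12 were all numbered 48 to 188. In puberty Sfrp1 was detected in 10 of the 30 basal cells with Wif1 and in 5 of the 49 without it. In the adult it was detected in 36 of 63 and 22 of 47, and within the cells numbered 48 to 188 in 33 of 53 and 22 of 37, which is an even split, while in the other adult cells it was in 3 of 10 and 0 of 10. Sostdc1 was in 15 of the 30 pubertal basal cells with Wif1 and in 21 of the 49 without, and in the adult in 18 of 63 and 9 of 47. Split by Sfrp1, Sostdc1 was in 9 of 15 pubertal basal cells with it and in 27 of 64 without. In the adult these were 19 of 58 and 8 of 52, but 0 of 3 and 2 of 17 in the other adult cells.

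**Figure D1:**
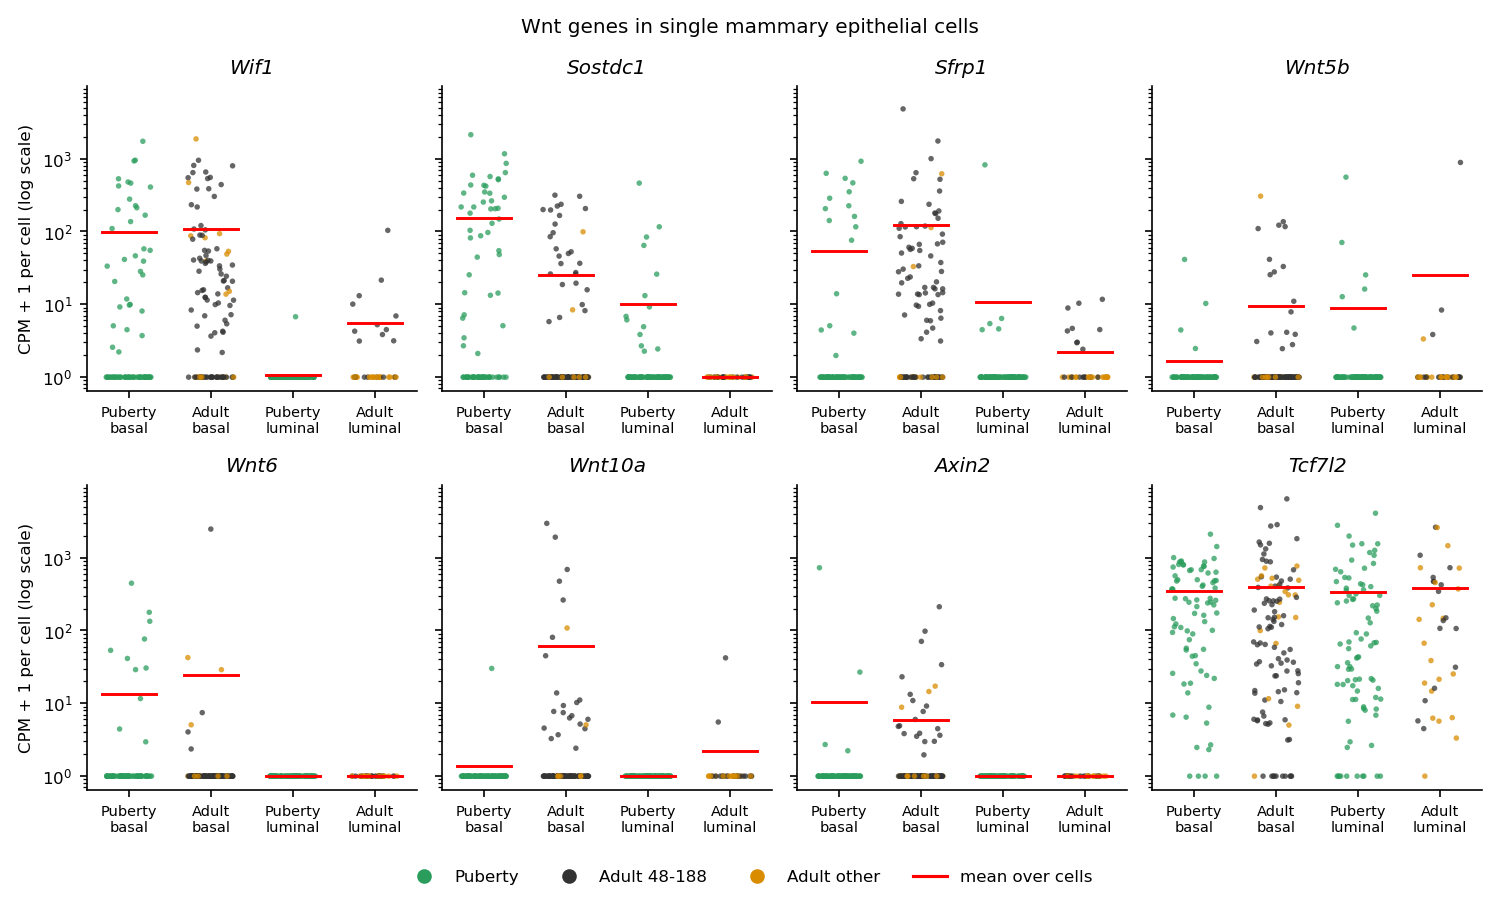
CPM plus 1 on a log axis for 8 of the 9 genes (Lef1 had no reads), each point a retained cell before thinning, by stage and class, with red lines for the mean over cells plus 1. Wif1, Sostdc1 and Sfrp1 appear mainly in the basal columns, where many cells are without reads. Wnt10a appears in adult basal cells, and Tcf7l2 is spread through all 4 columns.

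Wnt10a, a ligand of the beta-catenin branch, was rare in pubertal cells. It had 2 thinned reads in puberty, both in 1 of 79 basal cells (1.27%, 0.0320 to 6.85%), at 29.1 CPM in that cell, and 0 reads in 86 luminal cells. Adult basal cells held 638 reads, 58.0 CPM (53.6 to 62.7), in 18 of 110 cells (16.4%, 10.0 to 24.6%), with values of 1.42 to 2953 CPM and a median of 7.53. Most of these cells were low and 6 reached 100 CPM. The log2 ratio was -5.56 (-5.84 to -4.94), and -5.08 without the highest cells. The highest adult cell held 43.4% of the reads and 9 of 10 basal markers. Against the other 20 adult basal cells, with 11 reads in 2 of them, the ratio was -2.37 (-2.84 to -1.38), and it was -0.58 without the highest cells. In adult luminal cells Wnt10a had 6 reads, all in 1 of 37 cells.

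Wnt6, its genomic neighbor and another ligand of the pathway, had reads in basal cells alone among the classes. Pubertal basal cells held 13.5 CPM (11.1 to 16.4) in 9 of 79 cells (11.4%, 5.34 to 20.5%), with values of 1.96 to 445 CPM and a median of 40.3. Adult basal cells held 22.4 CPM (19.7 to 25.3) in 5 of 110 cells (4.55%, 1.49 to 10.3%), and 97.2% of these reads came from 1 cell at 2463 CPM. That cell, numbered within 48 to 188, had 10 of 10 basal markers and 3 of 6 fibroblast markers. The log2 ratio was -0.68 with it and 2.28 once the top cells were left out, so level and share pointed opposite ways until it was left out. Luminal cells had 0 of 86 and 0 of 37 cells with Wnt6, which allows up to 3.49% and 8.11%. Both neighbors were in the same cell in 2 adult basal cells, out of 5 with Wnt6 and 18 with Wnt10a, and in 0 pubertal cells.

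Wnt5b, a ligand mostly of the branch that works without beta-catenin, was rare. Pubertal basal cells held 0.633 CPM (0.206 to 1.48), 5 reads in 2 of 79 cells (2.53%, 0.308 to 8.85%), and adult basal cells 8.45 CPM (6.82 to 10.4), in 10 of 110 cells (9.09%, 4.45 to 16.1%). The log2 ratio was -2.53 (-3.01 to -1.87), and -2.48 without the highest cells. Outside 48 to 188, all 27 adult basal reads came from 1 cell. Luminal cells held 9.07 CPM in puberty, with 80.8% of the reads in 1 cell, and 17.0 CPM in the adult, with 98.4% in 1 cell. In puberty Wnt5b was thus lower in basal than in luminal cells, with a log2 ratio of -2.62 that became -1.13 without the highest cells. At least 1 of the 3 ligands appeared in 11 of 79 basal cells of puberty and in 30 of 110 of the adult, against 6 of 86 and 3 of 37 luminal cells.

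Axin2, which encodes a scaffold of the beta-catenin destruction complex and is a standard readout of the pathway, was detected in few cells. Pubertal basal cells held 11.3 CPM (9.05 to 13.9) in 2 of 79 cells (2.53%, 0.308 to 8.85%), and 1 of them, at 725 CPM, carried 96.6% of the reads. Adult basal cells held 4.64 CPM (3.45 to 6.10) in 14 of 110 cells (12.7%, 7.14 to 20.4%), with a highest value of 211 CPM. The log2 ratio of 1.12 (0.68 to 1.56) became -1.57 without the highest cells. The share of cells was larger in the adult, among the cells numbered 48 to 188 (13.3%) as among the others (2 of 20). No luminal cell had a thinned Axin2 read, 0 of 86 and 0 of 37.

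Lef1, a Tcf/Lef factor first known from lymphocytes and from hair and mammary placodes, was listed with 0 reads in all 444 cells, dropped cells included. For the 323 retained cells this allows a share of up to 0.929% of cells with a read at this depth.

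Tcf7l2, the Tcf factor that binds DNA with beta-catenin in many epithelia, was detected in most cells of every class. Basal cells held 341 CPM (329 to 354) in puberty, in 70 of 79 cells (88.6%, 79.5 to 94.7%), and 398 CPM (386 to 410) in the adult, in 91 of 110 (82.7%, 74.3 to 89.3%). Luminal cells held 335 CPM in puberty, in 81.4% of cells, and 378 CPM in the adult, in 86.5%. The log2 ratios of puberty over adult were -0.22 in basal and -0.18 in luminal cells. Within the luminal layer the levels were uneven. The 10 pubertal luminal cells with fewer than 2 hormone-sensing markers held 1263 CPM (1194 to 1335) of Tcf7l2, against 212 CPM (202 to 223) in the 76 others, and the 9 such adult cells held 783 CPM (727 to 843) against 248 CPM (229 to 267) in 28. The median cell values of Tcf7l2 were 1166 against 41.6 CPM in puberty and 470 against 106 CPM in the adult. This split rests on few cells, and the highest of the 10 pubertal cells held 34.1% of their Tcf7l2 reads.

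**Figure D2:**
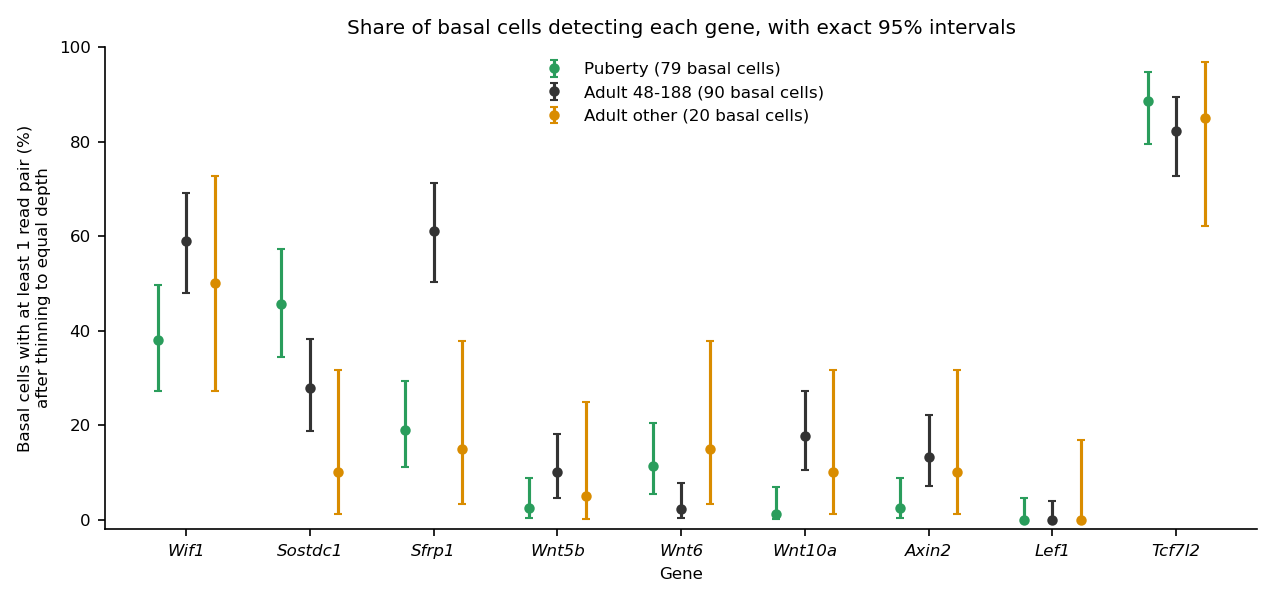
Share of basal cells with at least 1 thinned read pair for each of the 9 genes, in percent, for pubertal cells, adult cells numbered 48 to 188 and other adult cells, with exact 95% Clopper-Pearson intervals. Sfrp1 was in 61.1% of the adult cells numbered 48 to 188, against 19.0% of pubertal and 15.0% of the other adult cells.

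Expressed per kilobase of transcript (RPKM), the order of the genes differed between the stages. In pubertal basal cells it ran from Sostdc1 (88.1) through Tcf7l2 (75.0), Wif1 (41.6), Sfrp1 (12.0), Wnt6 (6.55) and Axin2 (2.64) to Wnt5b (0.267), Wnt10a (0.129) and Lef1 (0), and the counting intervals of the last 3 overlapped. In adult basal cells it ran from Tcf7l2 (87.3) through Wif1 (46.8), Wnt10a (29.6), Sfrp1 (28.4), Sostdc1 (14.8), Wnt6 (10.8) and Wnt5b (3.57) to Axin2 (1.09) and Lef1 (0). Wnt10a and Sfrp1 overlapped there. Sostdc1 thus led the order in puberty and came after Sfrp1 in the adult. In the 20 adult basal cells outside 48 to 188 the RPKM of Tcf7l2 (66.5) and Wif1 (60.7) overlapped, as did each neighboring pair from Sfrp1 downwards.

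Between the stages, 2 of the 8 genes with reads were 2-fold or more higher in pubertal basal cells (Sostdc1 and Axin2) and 3 were 2-fold or more lower (Sfrp1, Wnt5b and Wnt10a). Among all 16277 genes with reads in basal cells, 24.0% were that much higher and 16.9% that much lower. Of the 6 genes that reached 20 CPM, 1 was higher (Sostdc1) and 2 were lower (Sfrp1 and Wnt10a), against 24.6% and 17.4% of all such genes. With so few genes these counts are read as no more than the background. The median log2 ratio of the 8 was -0.45, against 0.12 over all genes. Detection in a larger share of adult than pubertal basal cells was seen for 5 of the 8 genes (Wif1, Sfrp1, Wnt5b, Wnt10a and Axin2), against 43.3% of all genes. Against the other adult cells alone it was also 5, with Wnt6 in place of Sfrp1, against 26.5%.

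In luminal cells 6 of the genes had reads. Of these, 2 were higher in puberty, Sostdc1 (at least 11.9-fold, against a floor of 3 reads in the adult) and Sfrp1 (log2 ratio 2.18), against 32.1% of all genes, and 2 were lower, Wif1 (-2.10, -2.33 to -1.27, with 1 pubertal read) and Wnt10a (at least 4.65-fold lower), against 17.6%. These ratios rest on few reads. The pubertal Sfrp1 value came from 1 cell with 98.8% of the reads and the ratio was -0.70 without the highest cells. The adult Wif1 value of 3.78 CPM came to 78.6% from 1 cell, and all of it from cells numbered 48 to 188.

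Over all retained cells the stages also differed in makeup, with basal cells at 46.2% in puberty and 72.4% in the adult, and the part of this in the next ratios was not tested. Sostdc1 was 2-fold or more higher in puberty (log2 ratio 1.97), against 19.9% of all genes, and Sfrp1 (-1.60), Wnt6 (-1.24) and Wnt10a (-5.28, -5.42 to -4.92) were lower, against 13.7%. Against the adult cells outside 48 to 188 alone, the log2 ratios over all cells were 4.23 for Sostdc1, 0.70 for Sfrp1, 1.64 for Wnt6 and -1.62 (-1.92 to -0.94) for Wnt10a.

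Within a stage, the 3 antagonists were higher in basal than in luminal cells, in level and in share. In puberty 5 of the 8 genes with reads were 2-fold or more higher in basal than in luminal cells, against 23.4% of all genes. Wif1 led with a log2 ratio of 6.40 (5.83 to 6.56), followed by Sostdc1 at 3.87 (3.57 to 4.17) and Sfrp1 at 2.33 (2.01 to 2.65). Wnt6 was at least 38.8-fold and Axin2 at least 32.3-fold higher than the floor of 3 luminal reads, but without its highest cell Axin2 had a log2 ratio of 0.46. In the adult 6 of 8 were higher, against 32.0% of all genes. Sfrp1 had a log2 ratio of 5.73 (4.91 to 6.45), Wnt10a one of 4.49 (3.69 to 5.22) and Wif1 one of 4.47 (3.84 to 5.12), and Sostdc1 was at least 32.0-fold, Wnt6 at least 27.6-fold and Axin2 at least 5.72-fold higher. Without its highest cell Wnt6 had a log2 ratio of 0.71. The Tcf7l2 ratios of 0.03 in puberty and 0.07 in the adult were the smallest of the 8 in size at both stages.

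**Figure D3:**
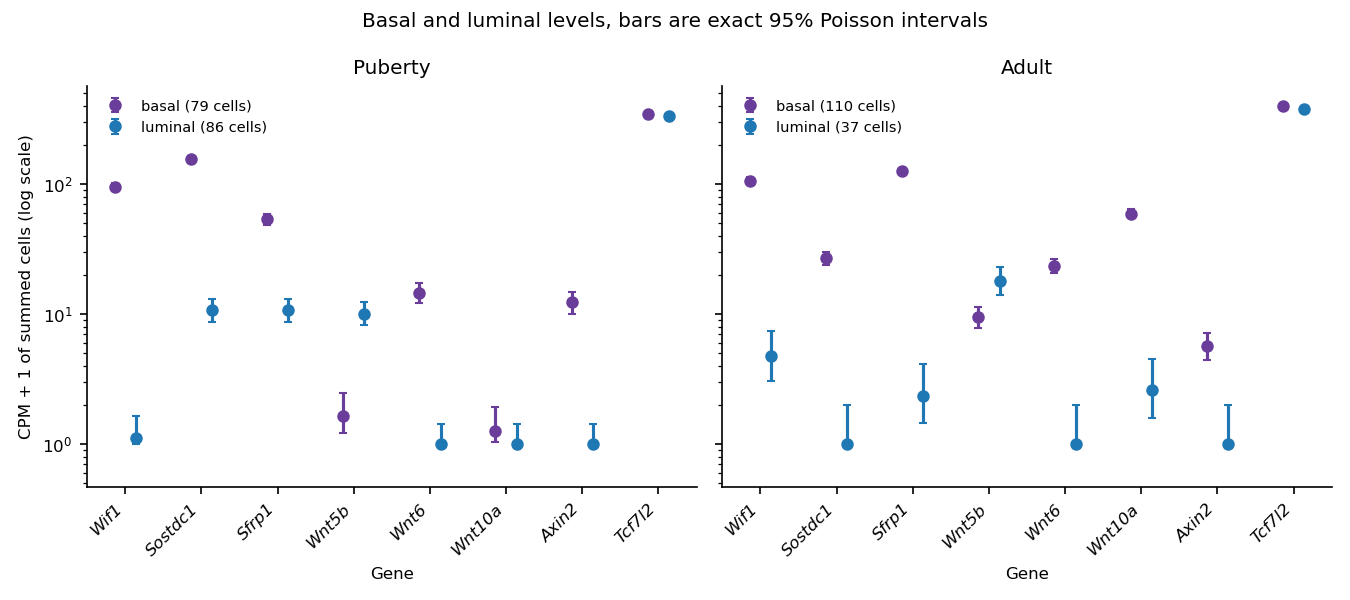
Summed level of 8 genes in basal and luminal cells, CPM plus 1 on a log axis, in puberty and in the adult, with exact 95% Poisson intervals. Wif1, Sostdc1, Sfrp1, Wnt6 and Axin2 lie higher in basal cells at both stages, Wnt10a is near 0 in both classes of puberty, and Tcf7l2 is level between the classes.

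The rest of the pathway was read from a list of 97 genes that included the 9. In basal cells 84 of the list had reads, of which 20 were 2-fold or more higher in puberty and 14 lower. Among all genes with reads in basal cells 24.0% were higher and 16.9% lower, so these counts lie near the background. The median log2 ratio of the 84 was -0.02. Of the 47 that reached 20 CPM, 9 were higher and 11 lower, against the 24.6% and 17.4% of all genes already given. Among 19 ligands, 13 had reads. Wnt5a, the main ligand of the branch without beta-catenin, was at 200 CPM in 64.6% of pubertal and 58.5 CPM in 44.5% of adult basal cells (log2 ratio 1.75, 1.62 to 1.89). Unlike Wnt6 and Wnt10a, Wnt5a was lower in basal than in luminal cells (581 CPM there in puberty, 215 CPM in adult cells). Wnt4, a ligand known downstream of progesterone, was lower in pubertal than adult luminal cells, at 28.0 CPM in 22.1% and 111 CPM in 37.8% of cells (log2 ratio -1.94, -2.17 to -1.71).

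Of the 21 receptors and receptor regulators, 4 of the 11 that reached 20 CPM in basal cells were higher in puberty and 4 lower. Over all genes at 20 CPM the shares were 24.6% and 17.4%, and with so few genes the counts are read as no more than that background. Lgr4, a receptor for R-spondins, which strengthen Wnt signals, was at 1306 CPM in 97.5% of pubertal and 426 CPM in 87.3% of adult basal cells (log2 ratio 1.61). Its relatives went the other way. Lgr5, a marker of stem cells in several epithelia, was at 15.2 CPM in 7.59% of pubertal and 74.3 CPM in 44.5% of adult basal cells (-2.22). Lgr6 had 4 reads in puberty and 66.1 CPM in the adult (-5.48), but its adult reads lay almost wholly in the cells numbered 48 to 188, and against the other adult cells its ratio was 0.01, with 1 read in 20 cells. For Lgr5 the ratio against those other cells was -2.16, but among basal cells without luminal keratin it was 3.31. Znrf3, a ligase that removes Frizzled receptors from the surface, was at 227 and 53.1 CPM (2.07). Fzd6, at 49.1 and 10.4 CPM, had a ratio of 2.14, which was 0.58 against the adult cells outside 48 to 188, and Fzd7, at 26.6 and 55.4 CPM, one of -1.03, which was -0.41 against the cells numbered 48 to 188.

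Inside the cell, 3 of the 11 genes of the signal chain that reached 20 CPM were higher in pubertal basal cells and 3 lower. These counts too are read as no more than the 24.6% and 17.4% of all genes. Gsk3b, the kinase that marks beta-catenin for destruction, was at 849 and 345 CPM (log2 ratio 1.30). Dact3, an inhibitor that acts on Dishevelled, was at 22.8 and 5.64 CPM (1.84). Dishevelled genes split, with Dvl3 at 80.1 and 28.4 CPM (1.47) and Dvl1 at 12.7 and 57.5 CPM (-2.10), yet both changed with the adult cells, to -0.04 for Dvl3 and 1.77 for Dvl1 against those outside 48 to 188. Nkd1, a feedback inhibitor and target like Axin2, was at 1.39 and 34.5 CPM (-3.89), with 56.6% of its adult reads in 1 cell. Of the nuclear factors, 0 of the 8 at 20 CPM differed by 2-fold, beside the same shares of all genes. Against the adult cells outside 48 to 188 alone 4 of 8 were higher in puberty, beside 39.6% of all genes. Tcf7 was at 60.8 and 50.1 CPM and Tcf7l1 at 49.9 and 51.0 CPM in basal cells, beside the 341 and 398 CPM of Tcf7l2.

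In luminal cells 25 of the 67 list genes with reads were 2-fold or more higher in puberty and 10 lower, against the 32.1% and 17.6% of all genes. Of the 24 that reached 20 CPM, 14 were higher and 1 lower, against 29.5% and 22.0% of all such genes. This distance from the background was not tested. Higher were Sfrp4 (34.5 and 3.24 CPM, log2 ratio 3.07, with 59.6% of its pubertal reads in 1 cell), Lgr4 (234 and 47.3 CPM, 2.28), Apc (383 and 82.7 CPM, 2.20), Fzd3 (97.9 and 23.0 CPM, 2.04) and Znrf3 (116 and 34.9 CPM, 1.71). With basal cells set at 10 CPM of Krt14 or Acta2, which leaves fewer luminal cells, the ratios were 0.68 for Apc and 0.44 for Fzd3. Against the luminal cells numbered 48 to 188 that of Znrf3 was 0.71. At 20 CPM, 14 of 26 list genes were higher and 3 lower against those cells, beside 40.8% and 21.6% of all genes. Against the other adult luminal cells 14 of 24 were higher and 1 lower, beside 36.2% and 23.6%. Between the layers, 6 secreted antagonists of the list reached 20 CPM in the adult, namely Wif1, Sostdc1, Sfrp1, Sfrp4, Dkk3 and Kremen1. All 6 were 2-fold or more higher in basal cells, against 30.0% of all genes at 20 CPM. In puberty 4 of 5 were so, against 22.9%. The 20 CPM could be reached in either class, so genes scarce in luminal cells entered through their basal level. Of the 12 antagonists with reads in the adult, 6 were higher and 1 lower in basal cells, beside 32.0% and 19.4% of all genes. In puberty 6 of 10 were higher and 1 lower, beside 23.4% and 18.4%. Outside 48 to 188, 5 of 11 were higher and 3 lower, beside 34.7% and 33.6%. Sfrp4 in adult basal cells came from 1 cell. Dkk3 stood at 114 CPM in 46.4% of adult basal cells and 1.89 CPM in adult luminal cells.

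**Figure D4:**
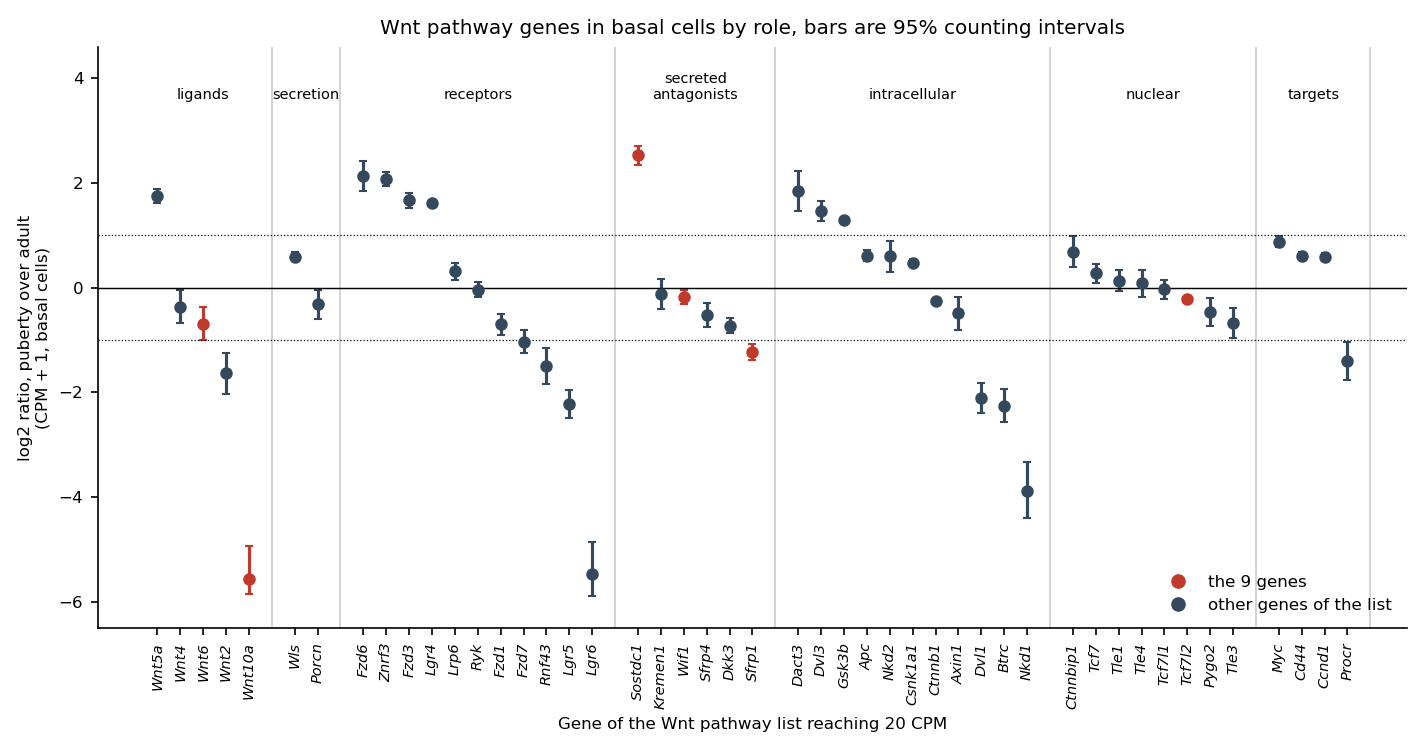
Log2 ratio of puberty over adult (CPM plus 1) in basal cells for each gene of the Wnt pathway list that reached 20 CPM, grouped by role, with 95% counting intervals and dotted lines at a 2-fold difference. Sostdc1 (2.53) is the highest point and Wnt10a (-5.56) the lowest, and both are drawn in red with the others of the 9 genes.

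Across the 323 retained cells, the genes whose thinned counts followed the members most closely were sought by Spearman correlation among 7567 genes, for the 4 members detected in 10% of cells or more, and the values describe cells that share libraries and depth. Wif1 ran closest with Apoe (0.51), Acta2 (0.50) and Myl9 (0.49). Sostdc1 ran closest with Vcan (0.49), Snai2 (0.46) and Pdpn (0.44), and Sfrp1 with Cacna2d1 (0.46), Plekhb1 (0.44) and Rn7sk (0.43), the RNA that marks the adult cells numbered 48 to 188. Tcf7l2 had weaker partners, Lalba (0.27), Csn3 (0.26) and Plb1 (0.23), of which the first pair encode milk proteins. Acta2 also entered the definition of basal cells.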

How the data were processed

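Single mammary epithelial cells of 2 stages were measured by RNA-seq. The deposited tables, 1 per cell, hold raw counts, in read pairs assigned to each gene. The authors aligned read pairs to mm10 with Subread and counted them with featureCounts and the RefSeq annotation of Rsubread, before any filter. Versions and the use of strand are not given in the sources used here. A combined table repeated these counts and was not used. No identical tables were found. Cells were grouped by the stage in the labels, and none was left unassigned.

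Of 27179 identifiers, 25275 matched a current RefSeq gene (the rest held 1.84% of read pairs). After the study's filter on 15 mitochondrial and 124 ribosomal genes, 25136 remained. Cells with 100000 read pairs and 1500 genes, the study's minimums, were retained. These were 77.4% and 68.2% of cells, fewer at each stage than the study lists, for a reason not given in the sources used here. Depth before filtering was 2 to 1456360 read pairs per pubertal and 1 to 1167991 per adult cell. Retained cells were thinned to 100000 read pairs each without replacement (seed 1). Log2 ratios of summed CPM carry a prior of 1 CPM, and their intervals come from the exact binomial split of the reads, shares carry exact Clopper-Pearson intervals and sums exact Poisson intervals, all at 95%. A zero allows up to 3 counts. With 1 sample per stage no test was made, and 2-fold stood for a difference. Fluidigm captures are single chambers, and no doublet caller was run. Alternatives included TMM factors (edgeR 4.0.16, limma 3.58.1, R 4.3.3), other thresholds, and adult subsets. Python 3.11.15, numpy 2.4.6, scipy 1.17.1, pandas 2.3.3 and matplotlib 3.10.9 were used, and the procedures were tested on simulated data.

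The 9 members, the pathway list, the cell type markers and the alternatives were chosen with earlier results of these data known. Besides the members, pathway genes were named if they reached 20 CPM and 10% of basal cells in 1 stage, differed by 2-fold within basal cells and moved the same way in share (at most 10 per direction, 5 in luminal cells). Genes named outside this rule were Tcf7, Tcf7l1, Dkk3, Kremen1 and Sfrp4 in basal cells, and Wnt5a and Dact3 in luminal cells, chosen after their values were seen. For members in 10% of retained cells, the 3 most correlated genes were named.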

Additional observations from a re-analysis of the deposited data

Results flagged for a closer look

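Sfrp1 had opposite ratios of puberty over adult in the 2 layers, with log2 values of -1.23 in basal and 2.18 in luminal cells. Dact3 was at 1.84 in basal and -1.36 (counting interval -1.82 to -0.42) in luminal cells, where it had 2 pubertal and 8 adult reads. Dvl1 was at -2.10 in basal and 1.41 in luminal cells. Dvl1 also differed between the adult sets, with a basal log2 ratio of -2.37 against the cells numbered 48 to 188 and 1.77 against the other adult cells, in which 1 cell held all 6 of its reads. These differences between groups were not tested, since each stage is 1 sample.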

How the results depend on the processing

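No paired analysis was possible because the results come from no test and title numbers only name cells. Pubertal Wnt10a, Wnt5b and Axin2 rest on a few cells, and each stage has no replicate to check a difference with. TMM factors shifted log2 ratios by -0.12 over all cells, -0.18 in basal and -0.13 in luminal cells. Of 91 recomputed counts of members, 76 stayed within 1.5 times their value, and of the recomputed log2 ratios and shares of single genes 445 stayed within their counting interval, 326 moved beyond it and 13 changed sign from a ratio of 2-fold or more.

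Members higher in pubertal basal cells fell from 2 to 1 (Sostdc1) with TMM, random seed 2, a prior of 10 CPM, adult cells 48 to 188 alone, or genes reaching 20 CPM. Over all cells the members higher in puberty rose from 1 to 2 with unthinned sums, a minimum of 50000 read pairs and 1000 genes, without the highest cells, or without cells of fibroblast markers. Against the other adult cells they were 3, and those lower were 1. Members higher in basal than luminal pubertal cells were 3 at 20 CPM. Without basal cells that hold luminal keratin (17 and 10 cells remain), 1 member was lower in puberty, and 3 were in a larger share of adult cells, as was so at 100 CPM.

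Log2 ratios of puberty over adult that were 2-fold or more changed sign in these cases. Without the highest cells, Axin2 in basal cells was -1.57, Sfrp1 in luminal cells -0.70 and Wnt6 over all cells 1.53. Against the other adult cells, basal values were 0.40 for Sfrp1, -0.042 for Dvl3, 0.0061 for Lgr6 and 1.77 for Dvl1, the luminal value of Wif1 was 0.16, and over all cells Sfrp1 was at 0.70 and Wnt6 at 1.64. Without basal cells that hold luminal keratin, Sfrp1 was at 2.93 and Lgr5 at 3.31. Without cells of fibroblast markers, Wnt6 over all cells was at 2.17. Apart from the removed cells themselves, the cause was not tested. Among smaller ratios, Wnt6 in basal cells (-0.68) rose to between 1.86 and 3.00 in 4 alternatives, and signs also changed for Wif1 in basal cells (up to 0.74), Tcf7l2 in luminal cells (up to 0.78), Wnt5b in luminal cells (up to 3.33) and Axin2 over all cells (down to -1.46). A prior of 10 CPM brought Wnt5b in basal cells to -0.80. In basal cells the ratio of Sostdc1 ranged from 1.87 to 4.28 over single alternatives, and that of Wnt10a from -5.95 to -2.37, or -0.58 against the other adult cells without the highest cells.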
